A study of Mus musculus with 2 samples.

Results

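The p53 network genes described here were 43 genes of the 24354 listed by symbol in the expression table of differentiating mouse embryonic stem cells (ESCs). They were taken by symbol, and all 43 were found. They comprised p53 and its relatives (3 genes), feedback regulators (4), genes of apoptosis (15), genes of cell cycle arrest (7), genes of DNA repair (9), and genes of metabolism and stress (5). The study asked what loss of Ino80, the ATPase of a chromatin remodeling complex, does to differentiating ESCs, and the comparison made here asks how the p53 network differed between the libraries.

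The transcription factor p53, encoded by Trp53 in mice, is kept low in most cells because Mdm2 binds it and marks it for degradation. DNA damage and other stresses stabilize p53, which then binds DNA as a tetramer and raises transcription of genes for cell cycle arrest, apoptosis, repair and metabolism, Mdm2 among them. ESCs hold a large pool of p53, and p53 activity in these cells is linked to the exit from pluripotency.

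The groups were control ESCs (Diff–CONT ESCs), labelled WT, and inducible Ino80 knockout ESCs (Diff–iKO ESCs), with 1 library each. Per the study's methods, both lines carried floxed Ino80 alleles and only the iKO line carried CreER, the tamoxifen-activated recombinase, at the ROSA26 locus. Cells of both lines, first primed in serum medium, were made into embryoid bodies in medium with 8% KSR, a serum replacement. The bodies were attached on day 4 in that medium. They were then cultured for 7 days in differentiation medium with 15% FBS, BMP4 and 0.5 µM 4-OHTM, the tamoxifen derivative that activates CreER. Both libraries therefore came from cells exposed to the drug, the growth factor and the serum, and neither came from an untreated culture. The lines differ in CreER as well as in Ino80, and the effects of the recombinase and of the deletion cannot be told apart.

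The deposited values were FPKM (fragment counts divided by transcript length in kilobases and by library size), and the whole fragments behind them were recovered from steps in the low values. The libraries held about 28.1 M (Diff–CONT) and 21.9 M (Diff–iKO) fragments on genes. Ino80 itself, on chromosome 2, was at 8.90 FPKM in the Diff–CONT library and at 10.3 FPKM in the library labelled Diff–iKO. The level of the targeted gene thus went against the label, and every direction below is that of the library labelled Diff–iKO. A value for the whole gene does not resolve the deleted part, so this check says nothing about the allele itself. The cells were mixed. Markers of pluripotent cells summed to 456 FPKM in Diff–CONT and 2895 FPKM in Diff–iKO, with 8 of 9 at least 2-fold higher. At least 2-fold lower were all 8 markers of visceral endoderm, 5 of 8 of mesenchyme, 5 of 8 of endothelial cells (1 was higher) and 4 of 5 of cardiomyocytes. Of the lower ones, 5 of visceral endoderm, 3 of endothelial cells and 3 of cardiomyocytes reached 2 FPKM only in Diff–CONT. Of the trophoblast markers 5 of 7 were higher and 2 lower, of the blood markers 2 of 5 were higher and 3 lower, and of 5 neural markers 0 were past 2-fold. Of these, 4 trophoblast markers reached 2 FPKM only in Diff–iKO, and 1 trophoblast, 3 blood and 1 neural marker only in Diff–CONT. Markers under 2 FPKM in both libraries were left out of the counts, from lists of 9 cardiomyocyte, 10 trophoblast, 7 blood and 6 neural markers. Over all genes tested the shares were 6.73% higher and 8.39% lower. The part of these cell types in the p53 network values was not tested. In such bulk samples, fewer cells of a type and less RNA per cell cannot be told apart.

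With 1 library a condition, no difference below has a replicate check and no p-value is given. A gene was taken to have risen or fallen where its fold change (FC) was at least 2 and its FPKM was at least 2 in 1 or both libraries. Ratios are log2 of Diff–iKO over Diff–CONT, and the ranges in parentheses are 95% counting intervals, which cover the sampling of fragments only and not the difference between cultures. Levels are in FPKM, per length of transcript, and so may be compared between genes.

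Of the 43 genes, 40 reached the minimum level. In the library labelled Diff–iKO 4 of the 40 (10%) rose, namely Plk3, Ptprv, Eda2r and Pml, against 6.73% of 12376 genes over the whole table. Ddit4 was the 1 gene (2.5%) that fell, against 8.39% over the whole table. Ptprv reached the minimum level only through the Diff–iKO library, and without it 3 of 39 rose. A further 14 of the 40 lay between 1.5-fold and 2-fold higher, and 20 lay within 1.5-fold of no difference. At a fold of 1.5 or more, 18 of the 40 (45%) were higher in Diff–iKO, against 14.9% of all genes tested, and 2 (5%), Ddit4 and Trp53bp1, were lower, against 17.6%. The counting interval lay above 0 for 30 of the 40 genes (75%), against 38.8% of 12271 genes with fragments, and below 0 for 6 (15%), against 39.1%. It crossed 0 for the remaining 4, which were Aen, Apaf1, Bbc3 and Fas. The median log2 ratio was 0.44 over the 42 network genes whose FPKM averaged 1 or more and −0.01 over 13145 genes of the table at the same minimum.

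**Figure D1:**
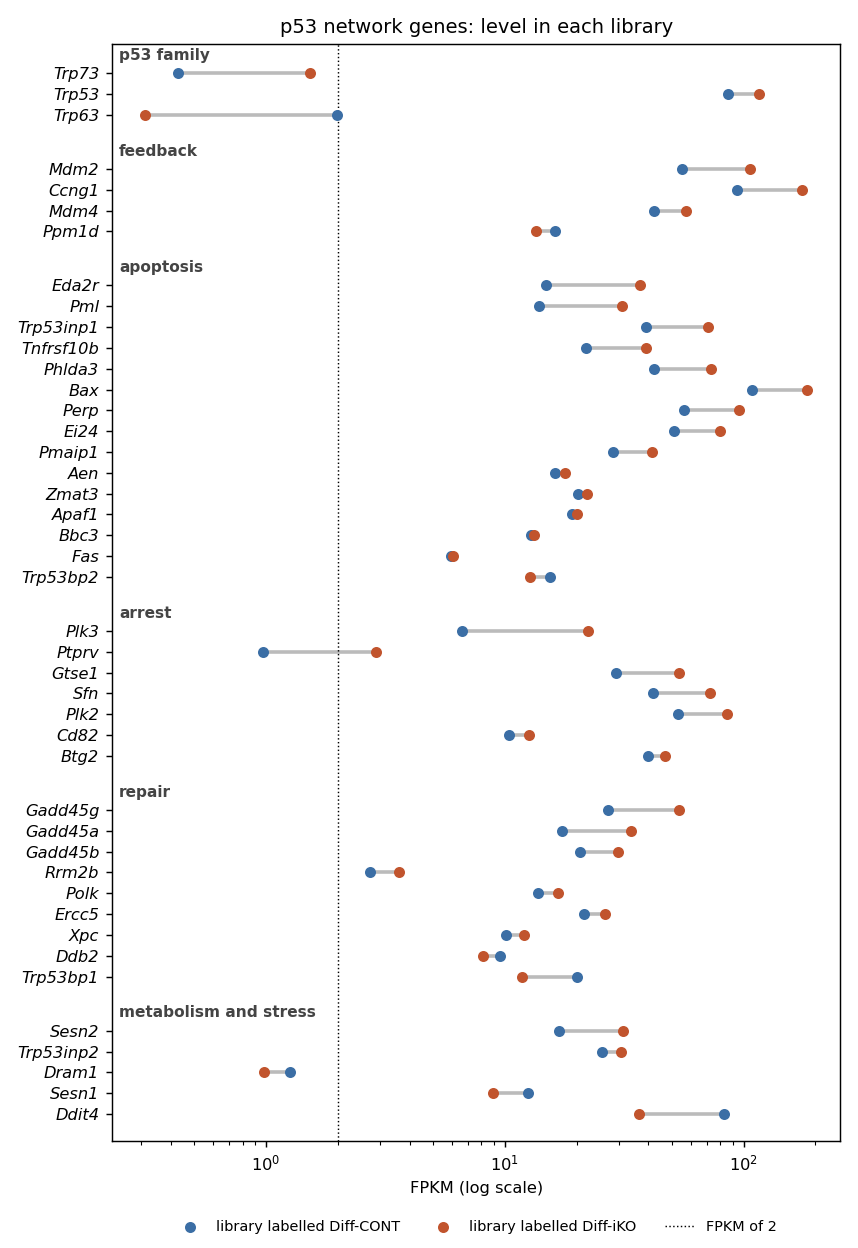
Level of each of the 43 p53 network genes in the 2 libraries, in FPKM on a log scale, grouped by function and ordered within a group by the ratio. Blue points are the Diff–CONT library, orange points the library labelled Diff–iKO, and the dotted line is an FPKM of 2. The orange point lies to the right for 34 of the 40 genes that reached this line.

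The promoters of the network genes were read for the p53 half-site, the decamer of which p53 binds 2 copies. Its consensus is 3 purines, a C, 2 bases that are A or T, a G and 3 pyrimidines, and it is its own reverse complement, so that both strands were searched at once. RefSeq promoter windows of 300 bases (GRCm38.p6, 250 bases before the start site and 50 from it on) were at hand for 33 of the 43 genes. An exact half-site lay in a window of 12 of the 33 (36.4%), against 2582 of 27025 genes (9.55%) of the RefSeq table and 753 of 9424 genes (7.99%) that reached the minimum level. Among network genes at least 1.5-fold higher in Diff–iKO, 7 of the 14 with a window held one, and among the other network genes 5 of 19 did. The genes were listed as p53 network and target genes, so a share above that of all genes is not an independent result. Whether half-sites go with the ratio was not tested. A match of letters is a description of the window and does not show a bound site.

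No network gene had 2 exact half-sites in its windows, against 0.381% of all genes. In 5 of the 33 genes (15.2%), a second half-site with at most 1 mismatch lay within 13 bases of the exact one, against 1.24% of all genes with a window. These pairs are shown because they come closest to the full p53 element, with both half-sites in capitals and 1 mismatch in each pair. The strand is that of the gene, and the positions are chr7:45467085-45467114 (minus strand) for Bax, chr11:40755457-40755486 (minus) for Ccng1, chr15:85859940-85859969 (plus) for Gtse1, chr9:58249919-58249948 (minus) for Pml and chr13:96519393-96519422 (minus) for Polk.
Bax: tgacAAGCATATCCcAGGCAAGCTTtgaac
Ccng1: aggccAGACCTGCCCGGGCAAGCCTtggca
Gtse1: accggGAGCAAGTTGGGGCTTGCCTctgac
Pml: gAGCCATGCCCgcatgccGGGCTTGTTTac
Polk: gcttGAACTAGCCTcAAACTTATTCtatag

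The half-sites of a pair were directly joined in Ccng1 and Gtse1, 1 base apart in Bax and Polk and 7 bases apart in Pml. Pml rose in the library labelled Diff–iKO, Ccng1, Gtse1 and Bax lay between the 1.5-fold and the 2-fold line, and Polk was at 13.7 and 16.8 FPKM. The Polk window belongs to a start site inside the gene (chr13:96480690-96542579 in GENCODE). The same holds for the Sesn1 window below (gene at chr10:41809935-41908424). The remaining 7 genes held a single exact half-site, shown in capitals below, and their ratios ran from −0.48 (Sesn1) to 0.96 (Gadd45a). The positions are chr7:78895927-78895956 (plus strand) for Aen, chr9:36797325-36797354 (minus) for Ei24, chr6:67037428-67037457 (minus) for Gadd45a, chr10:117710925-117710954 (minus) for Mdm2, chr11:85311112-85311141 (plus) for Ppm1d, chr10:41887256-41887285 (plus) for Sesn1 and chr11:69580274-69580303 (plus) for Trp53.
Aen: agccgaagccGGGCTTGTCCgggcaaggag
Ei24: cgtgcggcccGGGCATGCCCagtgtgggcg
Gadd45a: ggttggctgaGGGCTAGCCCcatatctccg
Mdm2: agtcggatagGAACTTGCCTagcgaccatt
Ppm1d: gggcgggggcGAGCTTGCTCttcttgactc
Sesn1: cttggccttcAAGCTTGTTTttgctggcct
Trp53: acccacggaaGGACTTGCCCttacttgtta

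Both Mdm2 and Ppm1d, which act against p53, held a half-site before the start site, and they differed in direction between the libraries. The Trp53 window held one as well. The 4 genes that rose included 1 with a match (Pml) and 3 without: Plk3 and Eda2r had no exact half-site in their windows, and Ptprv had no window. The others with no window were Xpc, Trp53inp1, Zmat3, Rrm2b, Tnfrsf10b, Trp63, Perp, Pmaip1 and Ddb2.

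**Figure D2:**
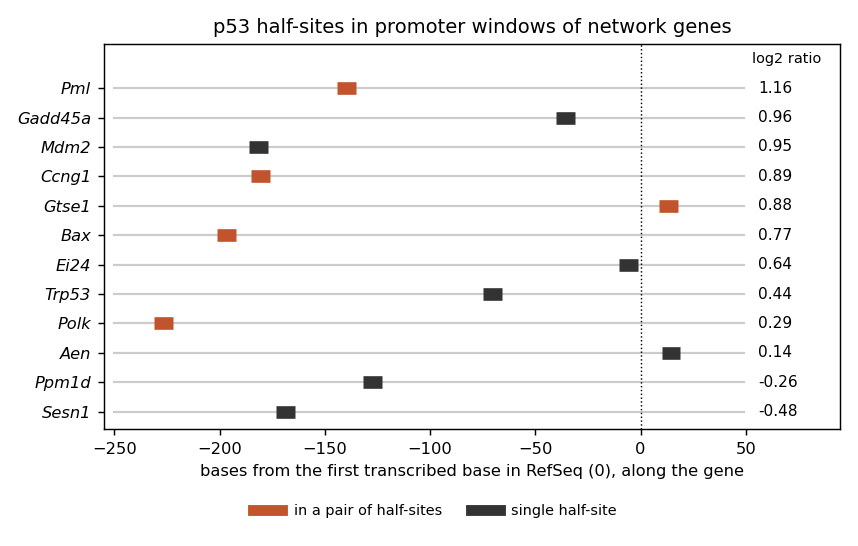
Position of the exact p53 half-site in the promoter window of the 12 network genes that hold one, in bases from the first transcribed base in RefSeq (dotted line), with the log2 ratio of Diff–iKO over Diff–CONT at the right. Orange marks lie in a pair of half-sites and black marks stand alone. Matches lie on both sides of the start site, and the ratios run from 1.16 (Pml) to −0.48 (Sesn1).

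Trp53 and its relatives came first. Trp53 (chr11:69580359-69591873, plus strand; gene positions here and below are from GENCODE on GRCm38), which encodes p53, was at 86.0 FPKM in Diff–CONT and at 116 FPKM in the library labelled Diff–iKO, an FC of 1.35 (log2 0.44, 0.37 to 0.50). Its mRNA was thus among the most abundant of the network in both libraries and differed by less than the 2-fold line. These values are of mRNA, while p53 is controlled largely through the stability of the protein, which was not measured. Both relatives were under 2 FPKM in each library. Trp63, which encodes p63 of stratified epithelia, was at 1.98 and 0.313 FPKM, from 91 and 11 fragments. Trp73, which encodes p73, was at 0.430 and 1.53 FPKM, from 26 and 69 fragments. They lay on opposite sides of 0, with intervals of −3.68 to −1.72 for Trp63 and 1.16 to 2.54 for Trp73. About 5.06% of the exonic bases of Trp73 overlap Trp73os on the other strand, and the strand setting of the counting was not given in the sources used here.

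Among the feedback regulators none passed the 2-fold line (6.73% of all genes tested were past it as higher and 8.39% as lower), and 2 of the 4 were at least 1.5-fold higher, against 14.9%. Mdm2 (chr10:117688875-117710758, minus strand), the ubiquitin ligase that binds p53, was at 55.3 FPKM in Diff–CONT and 107 FPKM in Diff–iKO, an FC of 1.93 (log2 0.95, 0.89 to 1.00). Mdm4, its relative that masks the activation domain of p53, was at 42.3 and 57.4 FPKM, an FC of 1.36 (log2 0.44, 0.36 to 0.53). Its ratio was close to that of Trp53, and that of Mdm2 was larger than both, with an interval that did not overlap theirs. Ccng1 encodes cyclin G1, which brings a phosphatase to Mdm2. It was at 94.4 FPKM in Diff–CONT and 175 FPKM in Diff–iKO, an FC of 1.86 (log2 0.89, 0.86 to 0.93), and only Bax was more abundant in the network in either library. Ppm1d, the Wip1 phosphatase that removes damage-induced phosphates from p53, was the exception in direction, at 16.2 and 13.6 FPKM (log2 −0.26, −0.39 to −0.13). The 4 feedback genes thus did not share one sign.

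Of the 15 genes of apoptosis 2 (13.3%) rose, against 6.73% of all genes tested, and 8 (53.3%) were at least 1.5-fold higher in Diff–iKO, against 14.9%. Their median log2 ratio was 0.64. Eda2r (chrX:97333840-97377216, minus strand), the receptor of ectodysplasin A2, was at 14.9 FPKM in Diff–CONT and rose to 37.0 FPKM in Diff–iKO, an FC of 2.48 (log2 1.31, 1.23 to 1.39). It is the 1 network gene on the X chromosome, where the median log2 ratio was 0.16 over 477 genes. Pml (chr9:58218076-58249786, minus strand), which builds the nuclear bodies named after it, rose from 13.9 to 31.1 FPKM, an FC of 2.24 (log2 1.16, 1.08 to 1.25). In Diff–CONT both were among the less abundant genes of this group.

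The most abundant gene of apoptosis, and of the whole network, was Bax, which opens pores in the outer membrane of mitochondria. It was at 109 FPKM in Diff–CONT and 185 FPKM in Diff–iKO, an FC of 1.70 (log2 0.77, 0.69 to 0.85). Some 12.2% of its exonic bases are shared with Gm45808 on the same strand. Perp, a membrane protein that is also part of desmosomes, was at 56.5 and 95.5 FPKM (log2 0.76, 0.69 to 0.83). Ei24, an endoplasmic reticulum protein, was at 51.1 and 79.5 FPKM (log2 0.64, 0.57 to 0.71). These 3 abundant genes kept to a narrow span of ratios. Trp53inp1, which promotes phosphorylation of p53, was at 39.3 and 71.3 FPKM (log2 0.86, 0.81 to 0.91). Tnfrsf10b, the mouse receptor for the death ligand Trail, was at 22.0 and 39.1 FPKM (log2 0.83, 0.75 to 0.92). Phlda3, an inhibitor of Akt, was at 42.1 and 73.4 FPKM (log2 0.80, 0.71 to 0.90). All 8 of these genes, Eda2r and Pml included, had intervals well above 0.

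The classical death genes did not share one ratio. Among the BH3-only proteins, which set Bax free to act, Pmaip1 (Noxa) was at 28.5 and 41.4 FPKM, an FC of 1.45 (log2 0.54, 0.45 to 0.62). Bbc3 (Puma), the other BH3-only gene, was at 12.9 and 13.3 FPKM (log2 0.05, −0.12 to 0.22). The intervals of Pmaip1 and Bbc3 did not overlap. The death receptor Fas was at 5.95 and 6.10 FPKM. Its recovered 61 and 47 fragments gave an interval of −0.54 to 0.62, which leaves room for a moderate difference in either direction. The fragments were recovered on its shortest RefSeq transcript (532 nucleotides), so they may be too few and the interval too wide. Apaf1, the core of the apoptosome, was at 19.1 and 20.1 FPKM, with an interval of −0.01 to 0.15. Aen, an exonuclease, was at 16.2 and 17.9 FPKM (log2 0.14), and the RNA-binding protein gene Zmat3 was at 20.4 and 22.1 FPKM (log2 0.12, 0.05 to 0.18). The intervals of Apaf1 and Zmat3 leave room for small differences only. Trp53bp2 encodes ASPP2, which directs p53 to apoptotic genes, and was the 1 gene of apoptosis with a lower value in Diff–iKO, at 15.5 and 12.8 FPKM (log2 −0.27, −0.38 to −0.17).

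All 7 arrest genes had counting intervals above 0 (38.8% of all genes did), 5 were at least 1.5-fold higher in Diff–iKO (14.9% of all genes) and 2 rose (6.73% of all genes), of which Ptprv reached the minimum level only through that library. Their median log2 ratio was 0.80. The groups were assigned here, with each gene in a single group, and the Gadd45 genes of growth arrest were placed with repair. Plk3 (chr4:117128655-117133963, minus strand), a polo-like kinase of the stress response, was at 6.64 FPKM in Diff–CONT and rose to 22.3 FPKM in Diff–iKO, from 392 and 982 fragments. Its FC of 3.35 (log2 1.74, 1.57 to 1.92) was the largest among the network genes that reached the minimum level. Ptprv (chr1:135108497-135132594, minus strand), a receptor-like phosphatase, rose from 0.972 to 2.91 FPKM, an FC of 2.99 (log2 1.58, 1.32 to 1.85), from 172 and 385 fragments. A pseudocount of 1 brought it to a log2 of 0.99, just under the line. Both were the least abundant arrest genes in Diff–CONT.

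Plk2, a kinase of centriole duplication and stress, was the most abundant arrest gene, at 53.2 and 85.4 FPKM (log2 0.68, 0.62 to 0.74). Sfn, which encodes 14-3-3 sigma of the G2 checkpoint, was at 41.8 and 72.7 FPKM, an FC of 1.74 (log2 0.80, 0.71 to 0.89). Gtse1, a microtubule protein that can carry p53 out of the nucleus, was at 29.1 and 53.8 FPKM, an FC of 1.85 (log2 0.88, 0.80 to 0.97). These 3 genes were all nearer to 2-fold than to no difference. Btg2, an antiproliferative cofactor, was abundant too but less different, at 39.9 and 47.1 FPKM (log2 0.24, 0.17 to 0.32). Cd82, a tetraspanin, was at 10.4 and 12.7 FPKM (log2 0.28, 0.02 to 0.55).

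Sfn and Perp, and Trp63 at its low level, are also genes of epithelia. Of the 11 surface epithelium markers examined beside them, none was at 0 and none was at least 2-fold lower in Diff–iKO. Krt14 and Krt15 were at least 2-fold higher and reached the minimum level only through Diff–iKO, and Krt5 was 2.46-fold higher but under 2 FPKM in both libraries. Among the 10 that reached the minimum level 6 intervals lay above 0 and 4 below. The markers summed to 1429 FPKM in Diff–CONT and 1835 FPKM in Diff–iKO, a ratio of 1.28. Most of both sums came from Krt8 (407 and 575 FPKM) and Krt18 (522 and 721 FPKM), so the ratio says little of the other markers. The part of epithelial cells in the values of Sfn and Perp was not tested.

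**Figure D3:**
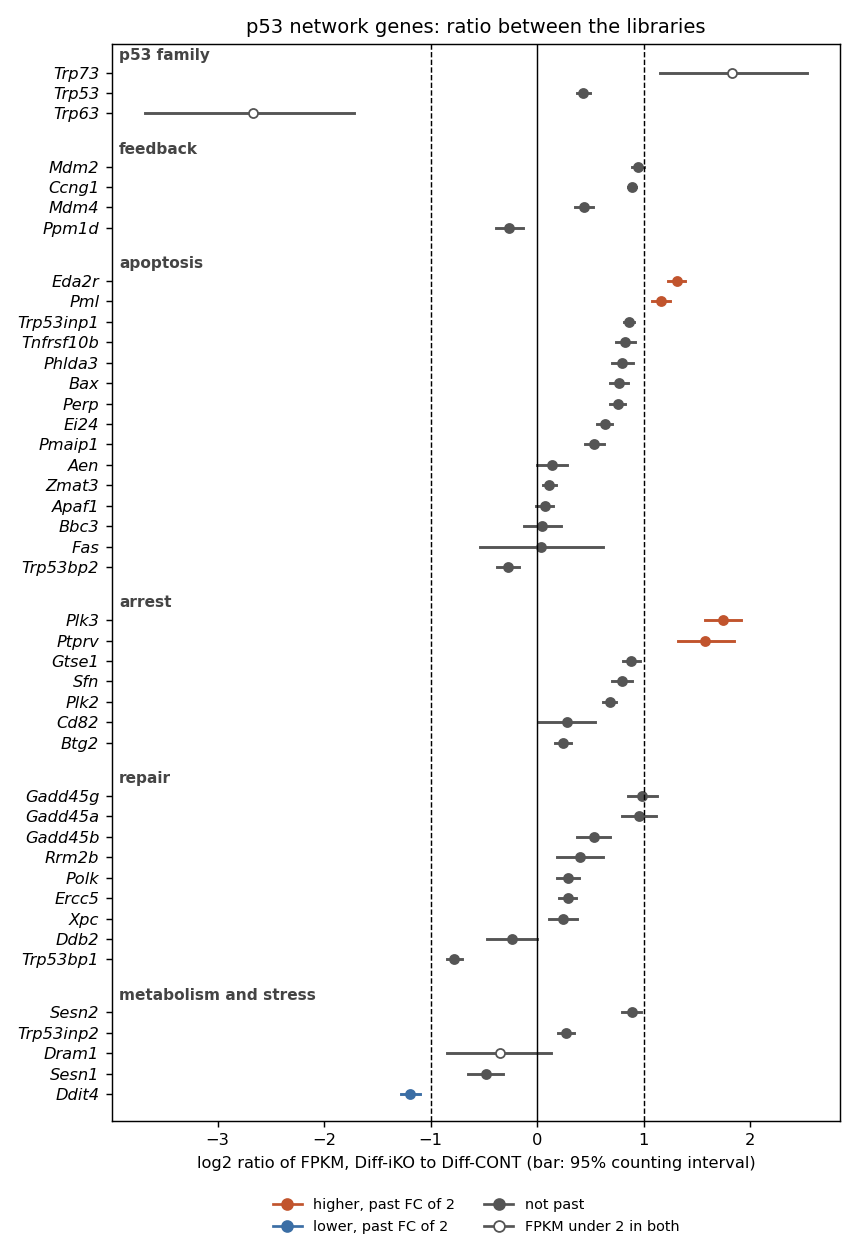
log2 ratio of FPKM, Diff–iKO over Diff–CONT, of each of the 43 p53 network genes, with 95% counting intervals as bars. Dashed lines mark a 2-fold difference, and open points are the 3 genes under 2 FPKM in both libraries. All 7 arrest genes lie right of 0, a row of genes stands just inside the right dashed line, and past the left dashed line lie Ddit4 and, as an open point, Trp63.

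No gene of DNA repair rose or fell, where the shares of all genes tested were 6.73% and 8.39%. Of the 9, 2 (22.2%) were at least 1.5-fold higher and 1 (11.1%) was at least 1.5-fold lower, near the shares of all genes (14.9% and 17.6%). The Gadd45 genes, small proteins of growth arrest and damage, stood highest. Gadd45g was at 27.2 FPKM in Diff–CONT and 53.9 FPKM in Diff–iKO, an FC of 1.99 (log2 0.99, 0.85 to 1.13). Gadd45a was at 17.3 and 33.7 FPKM, an FC of 1.94 (log2 0.96, 0.80 to 1.12). Gadd45b was at 20.7 and 29.9 FPKM, an FC of 1.45 (log2 0.53, 0.38 to 0.69). Gadd45g and Gadd45a were the genes nearest to the 2-fold line from below, while Pml (log2 1.16) and Ddit4 (log2 −1.19) were the nearest beyond it. The intervals of Gadd45g and Gadd45a reached past the line, and those of Pml and Ddit4 did not come back to it. Some 19.1% of the exonic bases of Gadd45a overlap E230016M11Rik on the other strand.

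The enzymes of excision repair and replication past lesions differed little. Ercc5, the XPG endonuclease, was at 21.6 and 26.3 FPKM (log2 0.29, 0.20 to 0.37), and Polk, a translesion polymerase, had the same ratio (0.19 to 0.39). Xpc, the damage sensor of nucleotide excision repair, was at 10.1 and 12.0 FPKM (log2 0.25, 0.12 to 0.37). Its partner in damage recognition, Ddb2, was on the other side of 0, at 9.56 and 8.09 FPKM (log2 −0.24), and 23.8% of its exonic bases overlap Acp2 on the other strand. Rrm2b, the p53-induced subunit of ribonucleotide reductase, was low, at 2.73 and 3.60 FPKM (log2 0.40, 0.19 to 0.62). None of these 5 genes reached a fold of 1.5.

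Trp53bp1 encodes 53BP1, which binds chromatin at double-strand breaks. It was at 20.2 FPKM in Diff–CONT and 11.8 FPKM in Diff–iKO, 1.71-fold lower (log2 −0.78, −0.85 to −0.71), and was the 1 repair gene at least 1.5-fold lower. Its exons share 15.0% of their bases with Tubgcp4 on the other strand.

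The genes of metabolism and stress held the 1 network gene that fell, where 8.39% of all genes tested fell. Of the 4 that reached the minimum level 2 had intervals above 0 and 2 below, close to the shares of all genes (38.8% and 39.1%). Ddit4 (chr10:59949669-59951834, minus strand), or Redd1, an inhibitor of mTORC1 that hypoxia also induces, was at 83.1 FPKM in Diff–CONT and fell to 36.4 FPKM in Diff–iKO, 2.28-fold lower (log2 −1.19, −1.28 to −1.10), from 3895 and 1277 fragments. Sesn1 and Sesn2, both sestrins that restrain mTORC1, stood on opposite sides of 0. Sesn2 was at 16.9 and 31.2 FPKM, an FC of 1.85 (log2 0.89, 0.80 to 0.98), and Sesn1 was at 12.5 and 8.93 FPKM (log2 −0.48, −0.65 to −0.32). The more abundant sestrin was thus Sesn2 in each library, and the gap between the sestrins was wider in Diff–iKO. Trp53inp2, a nuclear cofactor that also acts in autophagy, was at 25.5 and 30.7 FPKM (log2 0.27, 0.19 to 0.35). Dram1, a lysosomal protein of autophagy, was under 2 FPKM in both libraries, at 1.26 and 0.987 FPKM, with an interval of −0.84 to 0.13. The median over the 5 genes was −0.32, set by Dram1, and it was −0.11 at a minimum mean FPKM of 5 and −0.18 with a pseudocount of 1. The medians of feedback and repair were 0.67 and 0.29.

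Wider lists of the same pathway were examined beside the network. Like the network, they were chosen with earlier results of these data known, so their shares are descriptions and not independent support. Among 24 regulators of p53, such as its kinases, acetylases and ligases, none rose and 1 (4.17%) fell, against 6.73% and 8.39% of all genes tested. The 1 that fell was Prkdc, the catalytic subunit of the DNA-dependent kinase, at 5.09 and 2.21 FPKM (log2 −1.21, −1.34 to −1.07). With a pseudocount of 1 its ratio was −0.93. The median log2 ratio of these regulators was 0.02. Among 25 further p53 targets, 8 of the 23 that reached the minimum level (34.8%) rose and 1 fell, against 6.73% and 8.39% of all genes tested, and their median was 0.58. Without Gdf15, which reached the minimum level only through the Diff–iKO library, 7 rose. The genes on this list include growth factors and matrix genes with many other inputs.

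Cdkn1a encodes p21, the main effector of arrest by p53. It was at 78.1 FPKM in Diff–CONT and rose to 157 FPKM in Diff–iKO, an FC of 2.01 (log2 1.01, 0.92 to 1.10). It stood at the 2-fold line, and under it (log2 0.91) with the libraries scaled to the same sum of FPKM. Gdf15, a secreted stress factor, rose most, from 1.67 to 17.9 FPKM (log2 3.42, 3.02 to 3.82). Thbs1, the matrix protein thrombospondin 1, rose from 228 to 595 FPKM (log2 1.38, 1.36 to 1.40), and was more abundant in each library than any gene of the network. The cytokine gene Lif rose from 3.85 to 9.69 FPKM (log2 1.33, 1.16 to 1.51). Ephx1, an epoxide hydrolase, rose from 15.3 to 35.5 FPKM (log2 1.21), and Slc19a2, a thiamine transporter, from 18.0 to 40.1 FPKM (log2 1.15, 1.07 to 1.24). Rps27l, a ribosomal protein paralog, rose from 179 to 367 FPKM (log2 1.03, 0.94 to 1.12), and was under the line (log2 0.94) with the same scaling. Its reads may be shared with its near copy Rps27. Trp53i11 fell, from 21.3 to 10.4 FPKM (log2 −1.03), and with a pseudocount of 1 it was at −0.96.

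Arrest through p21 is known to repress cell cycle genes by way of the DREAM complex. Of 20 such genes, none fell and 1 rose, where the shares of all genes tested were 8.39% and 6.73%. The counting interval lay below 0 for 12 (60%) and above 0 for 3 (15%), against 39.1% and 38.8% of all genes, and the median was −0.13. The 1 that rose was Mybl2, a cell cycle factor of ESCs, from 20.9 to 68.4 FPKM (log2 1.71, 1.64 to 1.78). The p53 network and its further targets thus had medians above 0, and the regulators and the repressed genes had medians near or slightly below it.

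**Figure D4:**
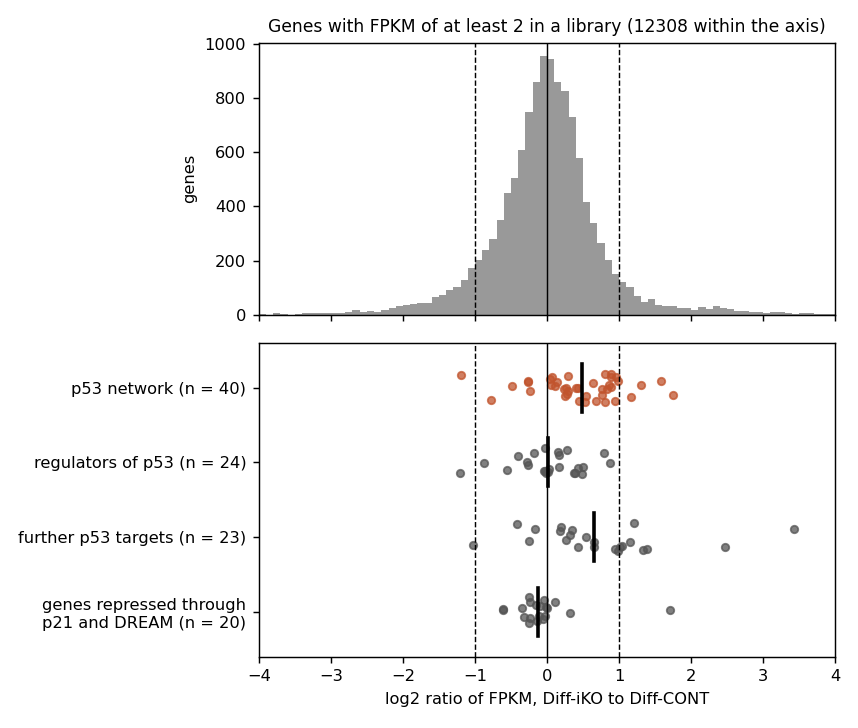
Upper panel, the number of genes by log2 ratio of FPKM, Diff–iKO over Diff–CONT, for 12308 genes within the axis. Lower panel, each gene of the p53 network and of the 3 wider lists, with the median of each list as a bar, over the genes that reached the minimum level (40 of the network, 23 further targets) and without a pseudocount (0.49 for the network, 0.65 for further targets, 0.02 for regulators and −0.13 for genes repressed through p21 and DREAM). The network points lie mostly between 0 and the dashed line of a 2-fold difference.

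The network was also set against transcript length and scaling. The genes tested were split into 4 classes of near equal number by transcript length. In the class with the shortest transcripts the median log2 ratio was 0.06 over all genes and 0.77 over 9 network genes, and in the class with the longest it was −0.07 over all genes and 0.34 over 10 network genes. The network medians were above those of all genes in each of the 4 classes. Scaling the libraries to the same sum of FPKM moved all ratios by −0.09, which left 31 of the 40 genes higher in Diff–iKO and changed the sign of Bbc3, Fas and Apaf1.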

How the data were processed

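RNA-seq libraries (TruSeq stranded mRNA, paired-end, 1 µg of total RNA each) were made from differentiating mouse ESCs, 2 in all, 1 labelled WT and 1 labelled Ino80 knockout. The authors deposited FPKM values for each gene. Per the submitters' processing notes, the tools were STAR 2.7.9a, Cufflinks 2.2.1 and Cuffnorm, with mm10. The gene annotation and the strand setting were not given in the sources used here.

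The network genes and the wider lists were chosen with earlier results of these data known. The minimums of FC (2) and FPKM (2) were those of the study. That 1 library had to reach the FPKM minimum, and that no pseudocount was added, was chosen here, and no test was made. Medians used FPKM + 0.1 and a mean FPKM of at least 1. Network genes were named in full where they lay past or next to the cut-off, were p53, Mdm2 or Mdm4, or were the 3 most abundant or the 2 most different of a class. Genes of the wider lists were named past the cut-off, except 1 that is not reported here.

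Fragment counts were recovered from the steps of low FPKM values on the length of the shortest RefSeq transcript of each gene, less 188 nucleotides. Counts of genes that also have longer transcripts may thus be too low, and their intervals too wide. In the 2 libraries 87.7% and 87.6% of 1183 and 1281 low values came out whole (within 0.2), so counts and 95% intervals (exact binomial) are approximate, and 21 of the 43 network genes have several RefSeq transcripts. Of the symbols, 23149 matched RefSeq directly, 1086 by a synonym (Cop1 as Rfwd2) and 119 did not. The step was tested on simulated data. Shared exonic bases came from GENCODE. The alternatives are given at the end. The pairs of half-sites, 1 window a gene and the count without Ptprv were added after seeing the data. Computation used scipy 1.17.1, numpy 2.4.6 and pandas 2.3.3 in Python 3.11.15, and plots used matplotlib 3.10.9.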

Additional observations from a re-analysis of the deposited data

How the results depend on the processing

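With 1 library a condition, no value has a replicate error and none could be left out in turn. No paired analysis was possible because each condition has 1 library. Each symbol had a single entry, so summing equal symbols gave no other value. At a fold minimum of 1.5, 18 network genes were higher and 2 lower, and at 4 there were 0 and 0. With no filter, 2 network genes were lower. Under the other filters, pseudocounts and scalings 3 to 5 were higher. Among regulators of p53, a minimum of 1.5 gave 2 higher and 2 lower, a minimum of 4 gave 0 lower, and a pseudocount of 1 gave 0 lower. Among further targets, a minimum of 4 gave 2 higher and 0 lower, a pseudocount of 1 gave 0 lower and no filter gave 2 lower. Of genes repressed through p21 and DREAM, 0 were higher at 4 and 2 lower at 1.5. Scaling to the same sum of FPKM moved the medians to 0.34 (network), 0.57 (feedback), 0.54 (apoptosis), 0.70 (arrest) and −0.22 (genes repressed through p21 and DREAM). With upper quartile scaling 1 repair gene, Gadd45g, passed the 2-fold line. The median of the p53 family, −0.95 over Trp63 and Trp53 at a mean FPKM of at least 1, was −0.38 with a pseudocount of 1 and changed sign to 0.43 with a minimum of 5 or with none, by construction as the genes included changed. The median of the regulators changed sign, from 0.02 to −0.07, with scaling to the same sum. At a fold of 1.5, 12 further targets were higher, and at a minimum mean FPKM of 5 the median of metabolism and stress was −0.11. Over all genes of the table, 833 were higher and 1038 lower. These were 807 and 1002 with a pseudocount of 0.1, 1846 and 2177 at a fold of 1.5, 278 and 237 at 4, 488 and 569 with FPKM of at least 2 in both libraries, 566 and 671 with at least 5, and 2794 and 2761 with no filter. With the first promoter window of each gene alone, 10 of 33 network genes (30.3%) held a half-site and 4 (12.1%) a pair, against 8.37% and 1.05% of all genes. The fewest recovered fragments behind a gene that reached the minimum level were 61 and 47 (Fas). They rest on its shortest RefSeq transcript, so its wide interval may be too wide.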
